A study of Rattus norvegicus with 24 samples.

Results

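The genes that differed in rat lung with 2 weeks of inhaled silica, whether or not the animals also breathed cigarette smoke, are described here from 16 of the 24 arrays of the series. The members were chosen by the exposure codes in the sample titles: 8 rats with silica (4 in air, 4 in smoke) against 8 rats with no particle (4 in air, 4 in smoke). The silica difference was averaged over air and smoke by keeping smoke as a term of the model. Each array holds total RNA of the right caudal lobe of 1 male Sprague-Dawley rat, aged 17 weeks in the labels (10 to 15 weeks in the series text), hybridised to the Affymetrix Rat230_2 array. The rats of the first group, here air without particle, breathed air by both routes. The rats of the second, air with silica, breathed air by nose and silica at 1 mg/m3 in whole-body chambers for 18 h a day, 7 days a week and 2 weeks. The rats of the third, smoke without particle, breathed cigarette smoke at 0.48 mg WTPM/L nose-only for 3 h a day, 5 days a week and 5 weeks in the protocol (6 weeks in the series text), with clean chamber air. The rats of the fourth, smoke with silica, had both exposures. The other 8 rats inhaled Iraqi sand at 1 mg/m3 in air or in smoke and serve below only as a second particle. The series text plans 102 rats, 17 a group; 4 a group were analysed here. The labels list air by the nose-only and the whole-body route for the rats without smoke or particle, so the comparison is of particle against chamber air.

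Inhaled crystalline silica settles in the small airways and alveoli and is engulfed by alveolar macrophages. Particles that damage the lysosome of these cells can activate the inflammasome and interleukin-1, and lung cells then release chemokines that call in neutrophils and monocytes. Long exposure is known for granulomas and collagen deposition. Cigarette smoke also loads macrophages and draws in neutrophils, so a comparison within each smoke level separates the particle from the smoke.

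Transcripts that define lung were near the top of the scale in all groups: Sftpc, the surfactant protein of alveolar type 2 cells, had group means of 14.84 to 14.91 on the log2 scale, and Scgb1a1, the secretoglobin of club cells, 14.82 to 14.94. Among the rats compared, 3 stood well apart on a list of marker genes. Rat 104 (air without particle) had a mean level of 8.32 over 22 heart and striated muscle genes against 5.60 to 6.89 in the other 15 rats, and rat 604 (smoke with silica) had a mean level of 8.43 over 28 proliferation genes against 7.13 to 7.74. Rat 201 (smoke without particle) had a mean level of 9.56 over 10 neutrophil genes against 7.22 to 8.0. Of the sand rats, rat 302 had 8.39 on the same heart list. Its array also had the lowest mean correlation with the other arrays (r = 0.944, with the next lowest 0.9795 in rat 604). The RNA integrity number was 9.1 ± 0.21 (SD, n = 6) in the silica rats and 9.32 ± 0.39 (SD, n = 6) in the rats without particle, and was not given for 4 of the 16. The absorbance at 260 nm of the RNA was 4.12 ± 1.44 (SD, n = 8) with silica and 3.03 ± 0.95 (SD, n = 8) without. Their part in the results was not tested beyond the fits given below. All levels come from a piece of whole lobe, so fewer cells of a type and less RNA per cell cannot be told apart.

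In the main fit similar numbers of genes rose and fell with silica, a balance that changed with the scaling and the model, as given below. Of 14217 genes with 1 symbol, 152 rose (1.07%) and 175 fell (1.23%) at an adjusted p under 0.05 (limma, Benjamini-Hochberg), and 2897 had an unadjusted p under 0.05. The rises were larger: 26 of the 152 were at least 1.5-fold, against 2 of the 175 falls. The median difference was 0.30 on the log2 scale among the rises and fell by 0.23 among the falls, beside a median of -0.01 over all genes. In 64 of the rises and 64 of the falls the silica rats did not overlap the rats without particle in air or in smoke, beside 1.08% of all genes with such a separation in 1 direction. All 327 called genes had the same sign in air and in smoke, which the choice by their average largely fixes. That choice also favours genes whose groups do not overlap, so neither count adds support to the calls.

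The count and its balance rested on the scaling, on the model, on how the spread was estimated and on single rats. Centring each array on its median gave 163 rises and 78 falls. With the absorbance at 260 nm as a covariate, 167 rose and 90 fell, and 155 of these were among the 327. With all 24 arrays and 6 group means, 40 rose and 9 fell, and 47 of these 49 were among the 327. Leaving out 1 rat at a time gave 119 (without rat 503) to 532 genes (without rat 502), and the count moved by more than 1.5 times also without rat 103 (199), 504 (214), 203 (166), 204 (145), 205 (148), 602 (168), 603 (162) or 604 (216). Without rats 104 and 604 together, 95 rose and 58 fell. In all 16 fits that left out 1 rat, 68 rises and 45 falls stayed called.

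**Figure D1:**
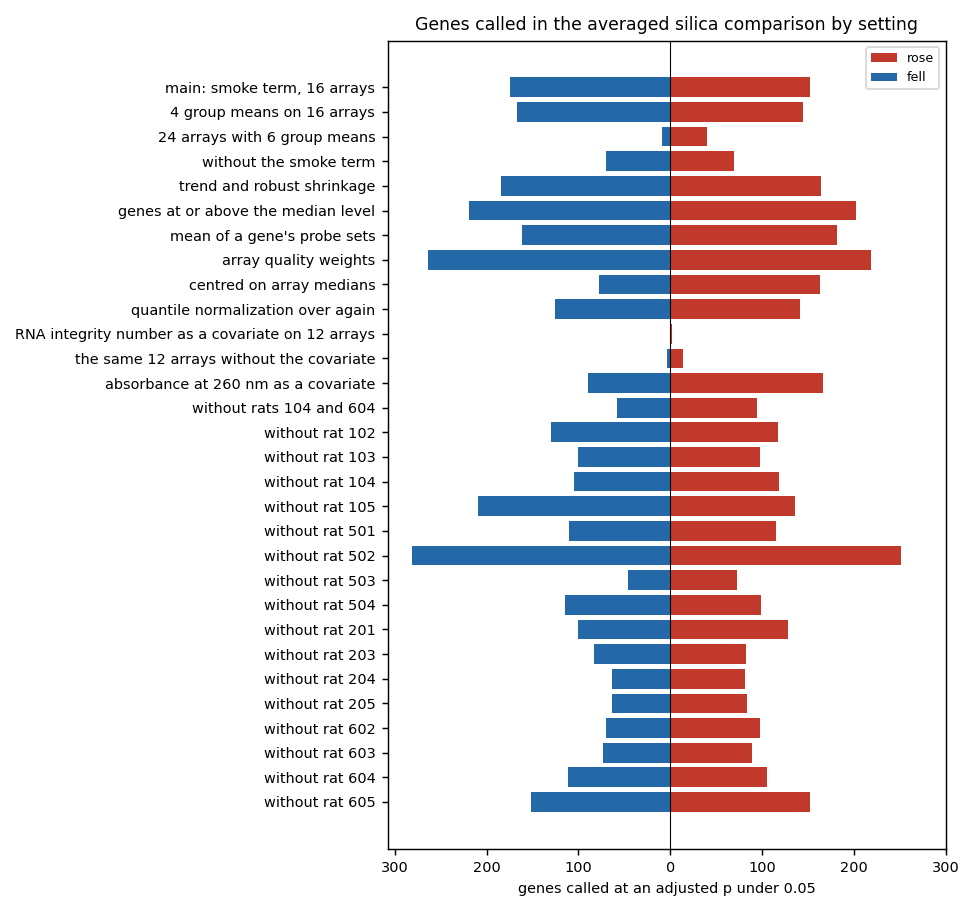
Genes that rose (red, right) and fell (blue, left) at an adjusted p under 0.05 in the averaged silica comparison under each setting but the minimum of 1.5-fold; each bar is a count of genes of the 14217 tested, fewer where dim genes were left out. The main fit has 152 rises and 175 falls, and the shortest bars are those of the fit on all 24 arrays and of the 12 rats with an RNA integrity number.

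The largest rise was in Bhlhe40, a basic helix-loop-helix repressor that binds E-boxes and is induced by stress, immune and circadian signals. Its values on the log2 scale were 7.23, 7.23, 7.21 and 7.39 in air without particle, 9.31, 8.94, 9.02 and 8.70 in air with silica, 8.14, 8.14, 8.33 and 8.22 in smoke without particle, and 8.98, 8.26, 8.88 and 9.08 in smoke with silica. All 4 silica rats in air lay far above their controls, whereas rat 603 in smoke lay inside the range of its controls. The averaged difference was 1.16 ± 0.18 (log2, SE; 2.24-fold, adjusted p = 0.00495), 1.73 in air and 0.59 in smoke.

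Zdhhc20, an enzyme that attaches palmitate to proteins, had values of 7.36, 7.75, 6.83 and 7.20 in air without particle, 7.84, 8.20, 8.63 and 8.49 in air with silica, 7.18, 7.58, 7.62 and 7.23 in smoke without particle, and 8.62, 8.65, 8.74 and 8.31 in smoke with silica. Every silica rat lay above every rat without particle, and the difference was 1.09 ± 0.13 (2.13-fold, adjusted p = 0.000942). Ccnd2, the cyclin D2 of the G1 phase, was also separated in full. Its values were 9.52, 10.12, 9.68 and 9.40 in air without particle, 11.01, 10.65, 11.00 and 11.00 with silica, 9.64, 9.76, 9.64 and 9.38 in smoke without particle, and 10.56, 10.47, 10.32 and 10.26 with silica, a difference of 1.01 ± 0.11 (2.02-fold, adjusted p = 0.000253).

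Veph1, a pleckstrin homology protein, had 7.76, 8.57, 8.13 and 8.30 in air without particle and 8.85, 9.29, 9.21 and 9.49 with silica, then 7.83, 7.95, 8.51 and 8.27 in smoke without particle and 8.87, 8.78, 8.97 and 9.45 with silica (0.95 ± 0.14, adjusted p = 0.00266). Cped1, named for its cadherin-like and PC-esterase domains, had 8.36, 8.30, 8.11 and 8.08 in air without particle and 8.72, 9.20, 9.07 and 8.90 with silica, then 7.79, 7.69, 7.78 and 7.52 in smoke without particle and 9.02, 8.92, 8.59 and 8.59 with silica (0.92 ± 0.09, adjusted p = 0.000143). In both genes the lowest silica rat lay above the highest rat without particle. Cped1 was lower in smoke than in air among the rats without particle, yet the silica rats of both strata met near the same level.

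Nipbl, which loads cohesin on chromatin, had 7.83, 8.31, 7.23 and 7.72 in air without particle, 8.63, 8.75, 8.85 and 8.59 with silica, 8.44, 8.20, 8.27 and 7.84 in smoke without particle, and 9.18, 9.05, 8.91 and 8.44 with silica (0.82 ± 0.14, adjusted p = 0.00766). Ston2, an adaptor of endocytosis, was dim, with 5.10, 5.14, 5.30 and 4.98 in air without particle, 5.64, 6.04, 6.11 and 5.96 with silica, 5.21, 5.12, 4.95 and 4.85 in smoke without particle, and 5.85, 6.27, 5.54 and 5.60 with silica (0.79 ± 0.10, adjusted p = 0.000959). Ccar1, a coactivator that regulates cell cycle and apoptosis, had 8.0, 8.38, 7.13 and 7.89 in air without particle, 8.74, 8.56, 8.90 and 8.72 with silica, 8.25, 8.30, 8.28 and 7.99 in smoke without particle, and 9.02, 8.99, 8.91 and 8.51 with silica (0.77 ± 0.14, adjusted p = 0.0109). In these 3 genes silica rats and rats without particle did not overlap in either stratum, although for Nipbl rats 605 and 201 were equal to 2 decimals, and rat 104 was the lowest for Nipbl and Ccar1 but the highest of its group for Ston2. For Ccar1 the fit on all 24 arrays ended the call (adjusted p = 0.176). Other probe sets of Nipbl differed: 1 of the other 3 gave 0.78 ± 0.21 and the others 0.01 ± 0.08 and -0.15 ± 0.11. The other 3 of Ccar1 gave 0.09 ± 0.10, 0.31 ± 0.10 and -0.01 ± 0.04, so not all probe sets of either gene shared the rise.

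**Figure D2:**
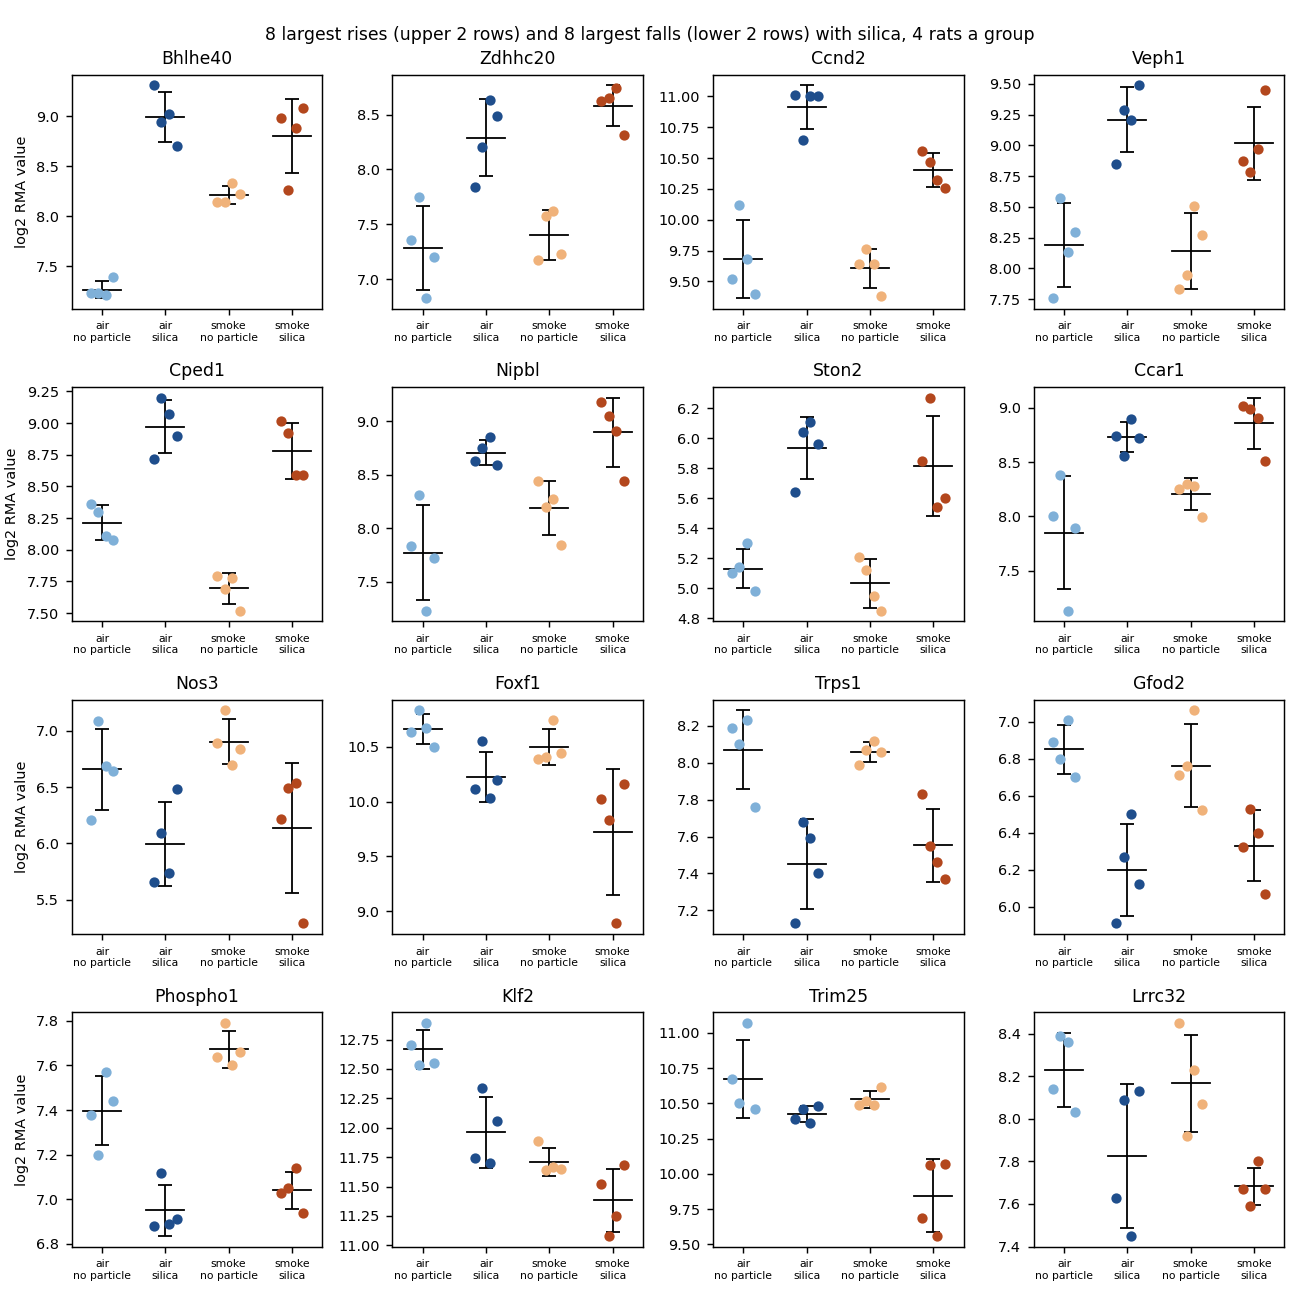
Log2 RMA values of the 8 genes with the largest rises (upper rows) and the 8 with the largest falls (lower rows) in each of the 16 rats; each point is a rat, the bar is the mean of 4 and the whiskers are 1 SD, and vertical axes do not start at 0. Zdhhc20, Ccnd2, Veph1 and Cped1 are separated between silica and no particle in both strata, while Trim25 and Lrrc32 overlap in air.

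Several transcription factors follow among the rises named for their size. Tfec, of the family that controls lysosome genes, rose by 0.76 ± 0.12 (adjusted p = 0.00618), the Krüppel-like factor Klf13 by 0.74 ± 0.12 (adjusted p = 0.00618), and the nuclear factor I protein Nfix by 0.72 ± 0.07 (adjusted p = 0.000202). The nuclear receptor Rora rose by 0.65 ± 0.11 (adjusted p = 0.00659) and the zinc finger factor Egr2 by 0.63 ± 0.13 (adjusted p = 0.0237). The smallest adjusted p of the comparison named here was that of Arid5b, an AT-rich interaction domain factor: its silica values of 7.85, 7.82, 7.84 and 8.07 in air and 8.03, 7.74, 7.94 and 7.89 in smoke all exceeded the 7.40, 7.35, 7.35 and 7.24 and the 7.29, 7.25, 7.29 and 7.43 without particle (0.57 ± 0.05, adjusted p = 4.64e-05). Nfix and Arid5b were separated across all 16 rats and kept their calls in every fit that left out a rat and on 24 arrays. Rora and Tfec lost theirs on 24 arrays (adjusted p = 0.0628 and 0.0943), and a second Rora probe set gave 0.00 ± 0.06. Sand rat 302 had 5.4 for Rora and 5.53 for Tfec, against 5.82 to 6.41 and 6.78 to 7.32 in the rest of its group.

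The 20 largest rises ran from 1.55-fold to 2.24-fold. The secreted complement regulator C4bpa rose by 0.72 ± 0.17 and the organic cation exporter Slc47a1 by 0.68 ± 0.16, both with an adjusted p of 0.0439. These 2 calls were the frailest: C4bpa lost its own when any rat but 201 or 605 was left out and Slc47a1 when any but 502, 201 or 602 was, with adjusted p up to 0.0976 and 0.0903. Pkib, an inhibitor of protein kinase A, rose by 0.69 ± 0.11 (adjusted p = 0.00592) and its second probe set agreed in sign (0.53 ± 0.08). Ro60, which binds Y RNAs, rose by 0.66 ± 0.14 (adjusted p = 0.025, and 0.0602 without rat 503). Ccl3, a chemokine of macrophages, rose by 0.64 ± 0.12 (adjusted p = 0.0124), and LOC100912031 and Ska2l1 by 0.71 ± 0.14 and 0.68 ± 0.12. Of the 20, 17 stayed called in all 16 fits with 1 rat left out, 13 on 24 arrays, and 13 had no overlap in either stratum. With the absorbance at 260 nm as a covariate 18 of the 20 stayed called, all but C4bpa and Ro60.

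Promoter windows are shown for the largest rise, for the other gene of the 20 largest rises whose window holds the E-box that Bhlhe40 protein binds, and for the largest fall. They are the 250 bases before the RefSeq gene start in build GRCr8, 5′ to 3′ on the gene's strand, with the letters of an E-box (CACGTG) in capitals; Bhlhe40 lies at chr4:143174200-143174449 (plus strand), Ccar1 at chr20:31271228-31271477 (minus strand) and Nos3 at chr4:11706582-11706831 (minus strand).
Bhlhe40: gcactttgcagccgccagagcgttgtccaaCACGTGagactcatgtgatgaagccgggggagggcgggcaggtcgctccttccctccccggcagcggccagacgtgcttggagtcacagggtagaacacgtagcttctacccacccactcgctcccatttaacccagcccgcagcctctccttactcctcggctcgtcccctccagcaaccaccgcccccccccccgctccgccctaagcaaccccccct
Ccar1: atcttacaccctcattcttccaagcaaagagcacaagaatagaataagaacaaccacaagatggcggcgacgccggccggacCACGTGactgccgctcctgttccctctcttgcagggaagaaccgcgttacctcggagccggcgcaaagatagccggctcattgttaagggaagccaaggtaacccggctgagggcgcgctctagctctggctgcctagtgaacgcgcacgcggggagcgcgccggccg
Nos3: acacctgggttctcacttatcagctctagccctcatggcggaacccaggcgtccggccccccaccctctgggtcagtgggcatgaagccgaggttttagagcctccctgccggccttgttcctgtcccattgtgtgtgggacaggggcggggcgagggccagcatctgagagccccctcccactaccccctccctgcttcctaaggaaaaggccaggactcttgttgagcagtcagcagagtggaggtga
The E-box began 220 bases before the start in Bhlhe40 and 168 bases before it in Ccar1, and the Nos3 window held none of the searched letters. Large falls held it too: it began 210 bases before the start in Phospho1, 91 in Slc43a1 and 73 in Trim25. The windows shown therefore do not set rises apart from falls. Windows of 300 bases (250 before and 50 after the start) were found for 125 of the 152 rises and searched on both strands. The E-box was in 12 of them (9.6%), beside 8.94% of the 11700 windows of tested genes and 6.65% of all 27457 windows. TGACTCA, the AP-1 letters, was in 5 of 125 (4%, beside 3.8% of tested genes), and the cAMP letters TGACGTCA in 3 (2.4%, beside 2.86%) and TGACG, which lies within those letters, in 33 (26.4%, beside 29.2%). The kappa B letters GGACTTTCC, GGAATTTCC or GGAAATTCC were in 2 (1.6%, beside 0.65%), and the D-box letters TTATGTAA or TTACGTAA in none (0.675% of tested genes). Apart from the kappa B share, which rests on 2 windows, these shares lay near those of all tested genes. Only 133 of the 175 falls (76%) had a window, under the minimum of 80% set for such checks, so no share is given for them. As a description of gene length, the span from start to end had a median of 33.6 kb over the 152 rises, 17.1 kb over 174 of the falls and 22.3 kb over 14167 tested genes.

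The largest fall was in Nos3, the endothelial nitric oxide synthase. Its values were 6.21, 7.09, 6.69 and 6.64 in air without particle, 5.66, 6.09, 5.74 and 6.48 with silica, 6.89, 7.18, 6.70 and 6.84 in smoke without particle, and 6.22, 6.49, 6.54 and 5.29 with silica. The groups did not overlap in smoke and did in air, where rat 504 lay above rat 102. The fall was -0.71 ± 0.18 (log2; a 1.64-fold difference, adjusted p = 0.0466), and leaving out rat 103, 104, 105, 501, 503, 201, 203, 204, 205, 602 or 603 ended the call, with an adjusted p of at most 0.101.

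Foxf1, a forkhead factor of lung mesenchyme and vessels, had 10.63, 10.83, 10.67 and 10.50 in air without particle and 10.11, 10.55, 10.03 and 10.20 with silica, then 10.39, 10.41, 10.74 and 10.44 in smoke without particle and 10.02, 9.83, 8.89 and 10.16 with silica (-0.60 ± 0.15, adjusted p = 0.0468). The groups overlapped in air, where rat 502 lay above rat 105, and not in smoke. Rat 604 was the lowest, yet without rats 104 and 604 the adjusted p was 0.0262; alone, leaving out rat 102, 103, 104, 501, 503, 504, 201, 203, 204, 205, 602 or 603 ended the call (adjusted p up to 0.0999). Klf2, a factor induced by blood flow in endothelium, was one of the brightest genes named here, with 12.70, 12.53, 12.89 and 12.55 in air without particle and 11.74, 12.34, 11.70 and 12.06 with silica, then 11.89, 11.64, 11.67 and 11.65 in smoke without particle and 11.52, 11.08, 11.25 and 11.68 with silica. It was separated in air and overlapped in smoke, where its level without particle was already lower (-0.52 ± 0.11, adjusted p = 0.0262; up to 0.0603 without rat 503 or 603). Of its 4 other probe sets, 3 were lower with silica (-0.76 ± 0.14, -0.34 ± 0.07 and -0.15 ± 0.06) and the dimmest gave 0.02 ± 0.05.

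Phospho1, a phosphatase known from bone mineralisation, was the most regular of the large falls. It had 7.38, 7.20, 7.57 and 7.44 in air without particle, 6.88, 7.12, 6.89 and 6.91 with silica, 7.64, 7.79, 7.60 and 7.66 in smoke without particle, and 7.03, 7.05, 7.14 and 6.94 with silica. All 8 silica rats lay below all 8 others (-0.54 ± 0.06, adjusted p = 0.000253; at most 0.00117 with a rat left out). Gfod2, an oxidoreductase-domain protein, had 6.89, 6.80, 7.01 and 6.70 in air without particle, 5.91, 6.27, 6.50 and 6.12 with silica, 6.71, 6.76, 7.06 and 6.52 in smoke without particle, and 6.32, 6.53, 6.40 and 6.07 with silica (-0.54 ± 0.10, adjusted p = 0.0109), with an overlap of rats 603 and 205 in smoke.

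Trps1, a GATA-type repressor, had 8.19, 8.10, 8.23 and 7.76 in air without particle, 7.13, 7.68, 7.59 and 7.40 with silica, 7.99, 8.07, 8.12 and 8.06 in smoke without particle, and 7.83, 7.55, 7.46 and 7.37 with silica (-0.56 ± 0.09, adjusted p = 0.00592). The groups were apart in both strata, but the gene's 3 other probe sets did not share the fall: 1 was higher with silica (0.37 ± 0.07) and the others gave -0.02 ± 0.09 and 0.02 ± 0.13. On 24 arrays the call was lost (adjusted p = 0.177). Trim25, a ubiquitin ligase of antiviral sensing, had 10.67, 10.50, 11.07 and 10.46 in air without particle, 10.39, 10.46, 10.36 and 10.48 with silica, 10.49, 10.52, 10.49 and 10.62 in smoke without particle, and 9.69, 10.06, 9.56 and 10.07 with silica (-0.47 ± 0.10, adjusted p = 0.0312; up to 0.0679 without rat 104, 503, 201, 203, 204, 205 or 602). Lrrc32, which holds latent TGF-beta on the cell surface, had 8.14, 8.39, 8.36 and 8.03 in air without particle, 7.63, 8.09, 7.45 and 8.13 with silica, 8.45, 7.92, 8.23 and 8.07 in smoke without particle, and 7.67, 7.59, 7.80 and 7.67 with silica (-0.44 ± 0.10, adjusted p = 0.036; up to 0.0718 without rat 103, 104, 501, 503, 201, 204, 205, 602 or 603). For both genes the groups were apart in smoke and overlapped in air, and the difference between the strata was not called.

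The 20 largest falls ran from 1.29-fold to 1.64-fold. Among the other 12, those that kept their call in every fit with a rat left out were Bcl6b, a zinc finger repressor (-0.38 ± 0.06, adjusted p = 0.00618), Slc2a3, the glucose transporter GLUT3 (-0.38 ± 0.06, adjusted p = 0.00756), Gpx3, the secreted glutathione peroxidase (-0.38 ± 0.07, adjusted p = 0.0143), and Slc43a1, an amino acid transporter (-0.43 ± 0.08, adjusted p = 0.0151). Bcl6b and Slc2a3 were separated across all 16 rats. The cytokine receptor Il4r (-0.44 ± 0.09, adjusted p = 0.0265), the Notch ligand Dll1 (-0.42 ± 0.09, adjusted p = 0.0241), the hyaluronidase-family Hyal3 (-0.40 ± 0.08, adjusted p = 0.0206) and the glycosyltransferase Galnt10 (-0.39 ± 0.08, adjusted p = 0.0223) each lost the call without rat 503, with adjusted p up to 0.0649. Rats 205 and 603 ended that of Il4r too, and rat 204 those of Dll1 and Galnt10. Exoc3l2 (adjusted p = 0.0284) lost its call without rat 104, 501, 503, 504, 203, 603 or 604 (up to 0.0712). The kinase Prkce (adjusted p = 0.0468) lost it without any rat but 102, 105, 502 or 504 (up to 0.101), Crispld2 (adjusted p = 0.0382) without any but 105, 502, 504 or 604 (up to 0.0736), and Ccm2l (adjusted p = 0.0389) without any but 105, 502, 504, 201 or 605 (up to 0.0865). Of the 20, 7 stayed called in all 16 fits, 7 without rats 104 and 604, and 4 on 24 arrays (Bcl6b, Gfod2, Hyal3 and Phospho1), and 4 had no overlap in either stratum. With the absorbance at 260 nm as a covariate 10 of the 20 stayed called. The calls lost were those of Klf2, Foxf1, Trim25, Lrrc32, Il4r, Dll1, Exoc3l2, Prkce, Crispld2 and Ccm2l (adjusted p up to 0.075). Smaller but regular falls were those of the kinase Dmpk (-0.36 ± 0.05, adjusted p = 0.00119) and the adhesion adaptor Sorbs3 (-0.34 ± 0.04, adjusted p = 0.00104), each lower in all 8 silica rats than in the 8 others.

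Most of the measured macrophage and lysosome genes had higher values with silica, and those that passed are read beside 1.07% of all genes that rose. Of 29 measured genes of phagocytes and lipid-laden macrophages 1 rose, none fell and 26 were higher, with a list median of 0.23 beside -0.01 over all genes. The gene that rose was Plin2, which coats lipid droplets. Its values were 10.90, 10.96, 11.10 and 10.92 in air without particle and 11.47, 10.98, 11.39 and 11.07 with silica, then 11.47, 10.98, 11.03 and 11.08 in smoke without particle and 11.48, 11.45, 11.71 and 11.77 with silica. It overlapped in air, and in smoke by rats 201 and 603 (0.36 ± 0.09, adjusted p = 0.0466), and leaving out any rat but 104, 502, 504 or 201 ended the call (adjusted p up to 0.101). The fatty acid receptor Cd36 (0.40, adjusted p = 0.0526), the arginine enzyme Arg1 (0.58, adjusted p = 0.0589), the elastase Mmp12 (0.88, adjusted p = 0.176) and Spp1, or osteopontin (0.80, adjusted p = 0.387), did not pass. Cd36 passed without rat 502 (adjusted p = 0.0235), Mmp12 without rat 605 (1.16, adjusted p = 0.0363), and Arg1 without rat 502, 201 or 605 (adjusted p of 0.0363 to 0.0479). Spp1 differed by -0.12 in air and 1.71 in smoke; rat 604 reached 11.86, and without it the averaged value was 0.39.

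The mean level of the phagocyte list was 9.54 to 9.72 in air without particle and 9.87 to 10.17 with silica, with no overlap, and 10.08 to 10.64 in smoke without particle against 10.40 to 10.91 with silica, where rat 201 overlapped. Rat 604 was the highest. The smoke rats without particle already lay above most of the air rats with silica. Of 20 lysosome genes 2 rose and none fell, with a median of 0.11 (0.16 in air and 0.04 in smoke). Lipa, the acid lipase that frees cholesterol, had 10.12, 10.18, 10.30 and 10.08 in air without particle and 10.68, 10.37, 10.45 and 10.39 with silica, then 10.66, 10.31, 10.42 and 10.62 in smoke without particle and 10.86, 10.69, 10.79 and 10.93 with silica. It was apart in both strata (0.31 ± 0.06, adjusted p = 0.0166) and not called on 24 arrays (0.0749). The membrane protein Lamp2 rose by 0.22 ± 0.05 (adjusted p = 0.0324; up to 0.074 without rat 103, 503, 203, 204, 205, 602 or 603).

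Of the chemokine and growth factor genes 2 rose, beside 1.07% of all genes, and the list medians averaged over the strata were near 0. Of 25 CC and other chemokines 1 rose (Ccl3) and none fell, with a median of 0.08 (0.02 in air and 0.10 in smoke). Among 13 neutrophil chemokines and growth factors 1 rose (Cxcl6) and none fell. Their median was 0.04 (0.18 in air and -0.02 in smoke). Ccl3 had 7.95, 8.07, 8.22 and 7.88 in air without particle and 9.41, 8.71, 8.78 and 8.90 with silica, then 9.06, 8.74, 8.61 and 8.91 in smoke without particle and 9.09, 9.12, 9.37 and 9.18 with silica. The silica rats stood clear in air and by a narrow margin in smoke, where the level without particle was already high. Cxcl6 rose by 0.38 ± 0.09 (adjusted p = 0.0382; up to 0.0781 without rat 102, 103, 104, 501, 503, 504, 203, 204, 205, 603 or 604).

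Cxcl1, the main neutrophil attractant of the family, did not pass on average (0.89 ± 0.25, adjusted p = 0.0673), except without rat 605 (1.01, adjusted p = 0.0457). Its values were 8.54, 8.66, 8.21 and 8.45 in air without particle and 10.79, 10.04, 9.98 and 9.99 with silica, but 10.73, 10.70, 10.35 and 10.53 in smoke without particle and 10.36, 11.09, 10.75 and 10.30 with silica. The silica rats in air rose toward the level of the smoke rats, which overlapped with and without silica. The monocyte attractant Ccl2 (0.93 ± 0.33, adjusted p = 0.135), its relative Ccl7 (0.23 ± 0.29), Cxcl2 (0.34 ± 0.16), the iron-binding defence protein Lcn2 (1.59 ± 0.89, adjusted p = 0.329) and Saa3 (0.51 ± 0.43), an acute phase protein, did not pass. For Ccl2, Ccl7 and Saa3, rat 604 stood above the other smoke rats with silica. It had 10.02 for Ccl2 (7.25 to 8.25 in the rest of its group), 8.66 for Ccl7 (6.07 to 6.72) and 11.63 for Saa3 (7.45 to 9.7). In air, Ccl2 was 7.53 to 8.11 with silica against 5.92 to 7.11 without particle. Lcn2 spanned 6.20 to 14.23 among the 16 rats. Retnla, a secreted protein of macrophages and airway cells, had 9.58, 9.93, 9.37 and 11.17 in air without particle and 13.67, 12.87, 12.97 and 10.79 with silica, then 12.93, 10.76, 12.44 and 12.50 in smoke without particle and 13.51, 12.88, 13.81 and 11.54 with silica. It was the largest difference of the comparison (1.67 ± 0.49) but missed the threshold (adjusted p = 0.0801; leaving out rat 605 gave 0.0395), with rat 504 in air and rats 603 and 605 in smoke inside the range of the controls.

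Of 19 interleukin-1, inflammasome and cytokine genes none rose and 2 fell, beside 1.23% of all genes: Il4r, above, and Tgfb1, the profibrotic growth factor (-0.28 ± 0.06, adjusted p = 0.0382; up to 0.0761 without rat 104, 501, 503, 504, 201, 203, 204, 205, 602, 603 or 604). The list median was -0.02, and Il1b itself differed by -0.56 ± 0.27 (adjusted p = 0.258). Rat 201, without silica, had an Il1b level of 11.16 against 8.73, 9.39 and 9.17 in the rest of its group, and without this rat the difference was -0.32 ± 0.17 (adjusted p = 0.324). Of 10 neutrophil markers none passed, 7 were lower and the median was -0.40, or -0.19 without rat 201, whose mean level of 9.56 compares with 7.65 to 8.0 in the rest of its group. None of 16 NF-kB feedback genes (median -0.05), 18 acute phase and defence genes (0.06) and 14 complement genes (0.07) passed. Of 28 NRF2 and glutathione genes none rose, 1 fell (Gpx3), 23 were higher and the median was 0.08; the haem oxygenase Hmox1 had 0.42 ± 0.12 (adjusted p = 0.0671, or 0.0431 without rat 603).

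**Figure D3:**
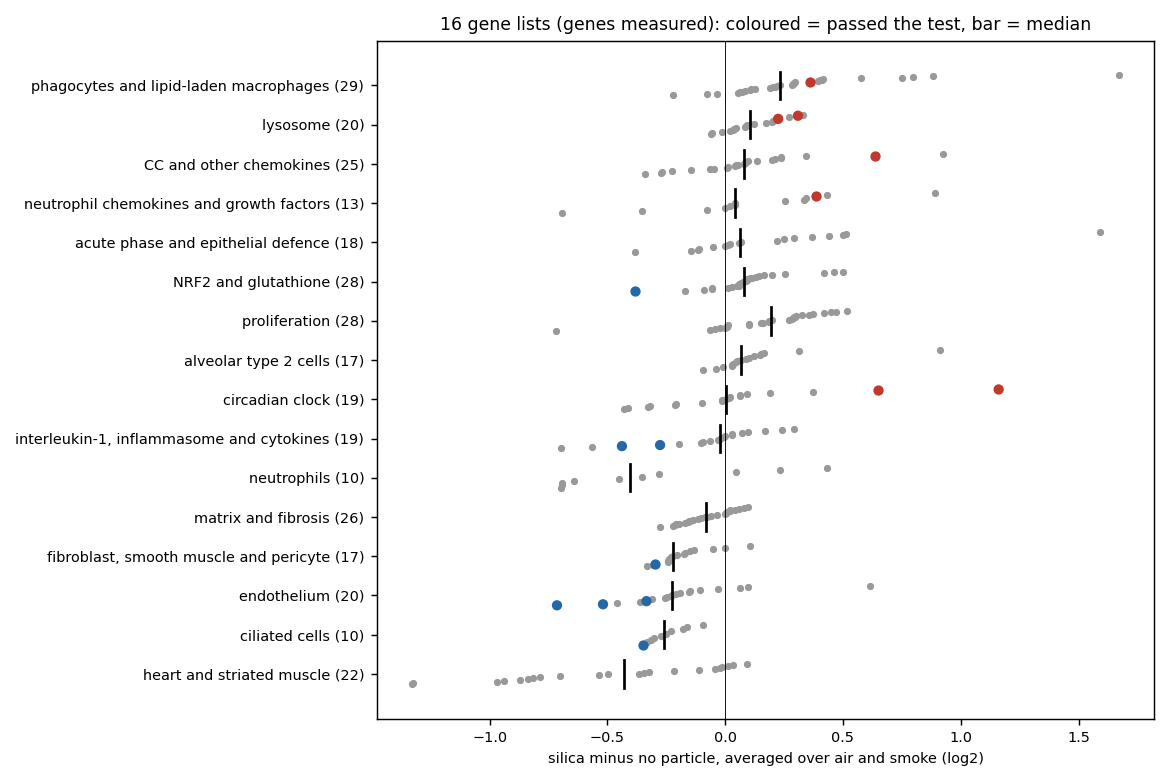
Silica difference on the log2 scale for each measured member of 16 gene lists; each point is a gene, red points rose and blue points fell at an adjusted p under 0.05, and black bars are list medians. The phagocyte list has its median at 0.23 with 1 red point, and the endothelium list at -0.23 with 3 blue points.

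The endothelium list leaned downward. Of 20 measured genes none rose, 3 fell (Nos3, Klf2 and Klf4), 17 were lower and the median was -0.23, beside 1.23% of all genes that fell. Klf4, the relative of Klf2 that is also induced by flow, had 11.69, 11.74, 11.66 and 11.55 in air without particle and 11.05, 11.50, 11.21 and 11.26 with silica, then 11.16, 11.22, 11.27 and 11.12 in smoke without particle and 10.99, 11.04, 10.56 and 11.11 with silica. It was apart in both strata, by 0.01 in smoke (-0.33 ± 0.08, adjusted p = 0.0382; up to 0.0804 without rat 102, 103, 104, 501, 503, 504, 203, 204, 205 or 602). Other endothelial genes had values of -0.46 for Eng, an endoglin of TGF-beta signalling (adjusted p = 0.127), -0.33 for the tight junction gene Cldn5 (adjusted p = 0.0856) and -0.25 for Vwf (adjusted p = 0.167), while Pecam1 had 0.06 and Bmpr2, the BMP receptor, 0.61 (adjusted p = 0.051, and 0.0212 to 0.0457 without rat 501, 604 or 605).

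The mean level of the endothelium list was 10.95 to 11.14 in air without particle and 10.62 to 11.05 with silica, and 10.84 to 10.92 in smoke without particle against 10.39 to 10.81 with silica. Rats 502 and 504 lay among their controls in air, and the groups were apart in smoke. Rat 104 held the highest level and rat 604 the lowest of the 16. The list median was -0.14 without rat 604. Without these 2 rats the list median was -0.13, none of its 20 genes fell and 1 rose, and with rat 503 alone left out none fell. With all 24 arrays none of the 20 was called.

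Airway lists had lower values in both strata, and stromal lists mainly in air. Their called genes are read beside 1.23% of all genes that fell. All 10 ciliated cell genes were lower (median -0.26) and 1 fell, the tubulin-binding Tppp3 (-0.35 ± 0.08, adjusted p = 0.0372; up to 0.0798 without rat 102, 103, 503, 504, 203, 204, 205 or 605). The ciliated median was -0.15 without rat 203, a smoke control with the highest list level (10.28), and -0.12 without rat 605, a silica rat with the lowest (8.81). Of 17 fibroblast, smooth muscle and pericyte genes 16 were lower (median -0.22, with -0.34 in air and -0.06 in smoke, and -0.15 without rat 501) and 1 fell, the matrix protein gene Dpt (-0.30 ± 0.05, adjusted p = 0.0124), which stayed called in every fit with a rat left out and on 24 arrays. None of 16 club and secretory cell genes passed (median -0.22, and -0.14 to -0.08 without rat 104, 203, 204 or 605). None of 26 matrix and fibrosis genes passed either (median -0.08, with -0.20 in air and 0.00 in smoke). That median was -0.01 without rat 104, -0.02 without rat 501 and -0.17 without rat 604. Col1a1, a chain of fibrillar collagen, had -0.15 ± 0.26. The heart and striated muscle list, in which rat 104 stood out, had a median of -0.43 with none of 22 called, and -0.19 without rat 104. Myl7, an atrial myosin chain, differed by -1.32 ± 0.89, or by -0.73 without rat 104. The part of airway or heart tissue in the falls was not tested.

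**Figure D4:**
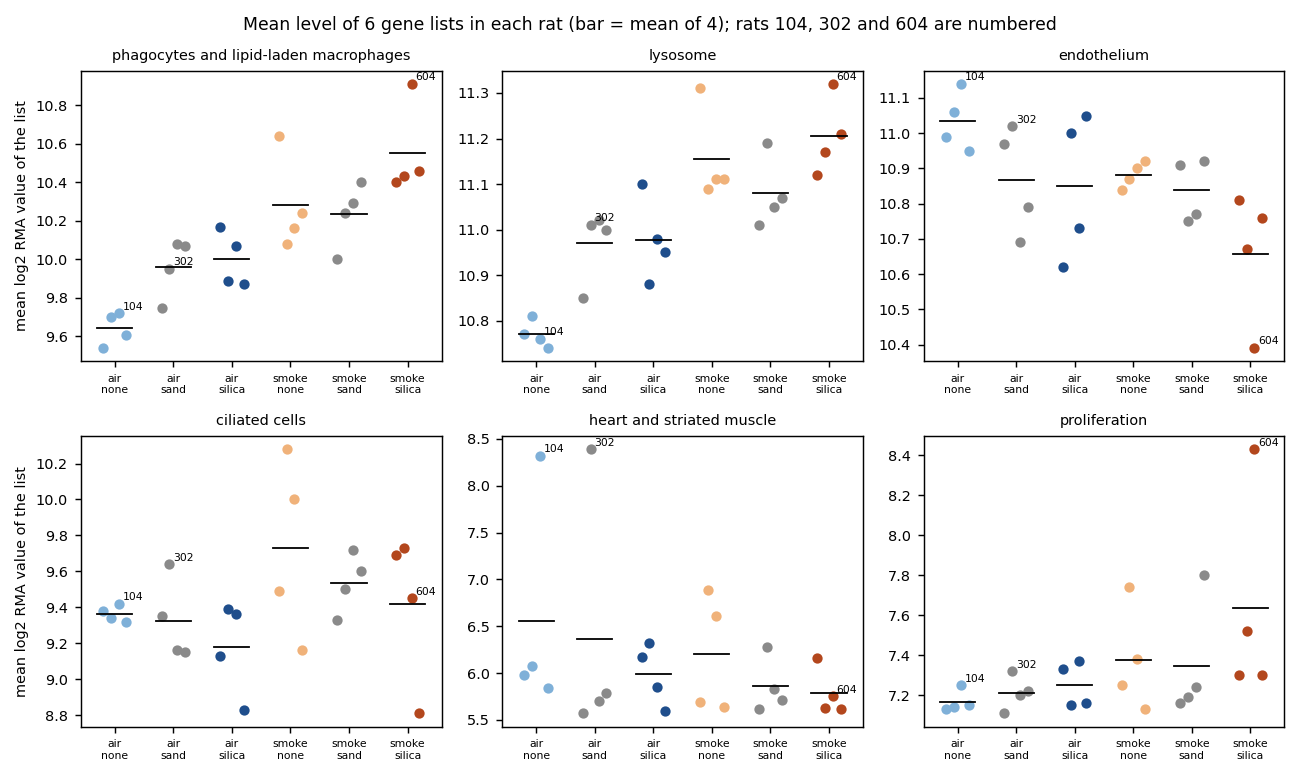
Mean log2 RMA value of 6 gene lists in each of 24 rats by group; each point is a rat, bars are means of 4, sand rats are grey and rats 104, 302 and 604 are numbered. In the phagocyte panel the air rats with silica lie at 9.87 to 10.17 above the 9.54 to 9.72 of those without particle, and rat 604 is the lowest in the endothelium panel at 10.39.

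Of 19 circadian clock genes 2 rose (Bhlhe40 and Rora), none fell and the median was 0.00. This count and those of the next lists are read beside 1.07% of all genes that rose and 1.23% that fell. The output genes Dbp (0.02 ± 0.28) and Nr1d1 (-0.41 ± 0.20, adjusted p = 0.25) and the period gene Per1 (-0.43 ± 0.12, adjusted p = 0.0655; 0.042 without rat 502 and 0.0477 without rat 605) did not pass. Dbp differed by 0.56 in air and -0.53 in smoke, and Bmal1, the core activator, by -0.67 and 0.03. Of 22 immediate early genes 1 rose (Egr2), 17 were lower and the median was -0.09, or -0.06 without rat 503 and -0.04 without rat 201. Of 28 proliferation genes none passed, 24 were higher and the median was 0.19, or 0.09 without rat 604; Mki67, the marker of dividing cells, had 0.52 ± 0.29 (adjusted p = 0.318), or 0.24 without rat 604.

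The remaining lists gave no called gene in either direction. Their medians were 0.07 for 17 alveolar type 2 genes, -0.02 for 10 alveolar type 1 genes, -0.17 for 21 T and NK cell genes (-0.10 without rat 604 and -0.29 without rat 605), -0.14 for 11 B and plasma cell genes (-0.09 to -0.05 without rat 104, 502 or 504) and 0.08 for 17 antigen presentation genes. They were 0.09 for 20 interferon-stimulated genes, 0.02 for 20 matrix proteases and inhibitors, 0.02 for 13 iron and haem genes, -0.04 for 15 glucocorticoid and metallothionein genes, 0.02 for 22 heat shock and endoplasmic reticulum stress genes and 0.08 for 18 cholesterol and fatty acid synthesis genes. For 5 erythroid, 15 mast cell, eosinophil and basophil and 11 mesothelium and fat genes they were -0.05, -0.08 and -0.06. The interferon-stimulated list had a median of -0.15 in air and 0.32 in smoke, and the T and NK cell list -0.32 in air and -0.03 in smoke. The surfactant gene Sftpc (0.03 ± 0.03) and Scgb1a1 (-0.03 ± 0.04) differed little in either direction.

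Within each stratum, silica in air gave 35 rises and 5 falls (0.281% of genes called) and silica in smoke 16 rises and 18 falls (0.239%), with 1315 and 2192 genes at an unadjusted p under 0.05. In air the largest rises were Cxcl1 (1.74 ± 0.19), Bhlhe40 (1.73 ± 0.15), the complement component C3 (1.25 ± 0.22) and Ccnd2 (1.23 ± 0.14). In smoke they were Zdhhc20 (1.18 ± 0.19), Cped1 (1.08 ± 0.12) and Ccnd2 (0.80 ± 0.14), and the largest falls were the hyaluronidase Hyal2 (-0.77 ± 0.13), the Krüppel-like factor Klf15 (-0.75 ± 0.14) and Trim25 (-0.69 ± 0.13). C3 differed by 1.25 in air and -0.09 in smoke. Both strata called 10 genes in common. These counts were unsteady: leaving out any of the 8 rats in air but 103 gave 9 to 26 genes, and any of the 8 in smoke but 605 gave 4 to 13.

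Because the strata share no rat, genes chosen in one could be read in the other. Of the 100 genes with the smallest p in air, fitted on the air rats alone, 86 had the same sign in smoke and 46 of them an unadjusted p under 0.05 there, beside 11.6% of all genes; the median size was 0.52 in air and 0.25 in smoke. Of the 100 chosen in smoke, 91 had the same sign in air and 37 an unadjusted p under 0.05 there, beside 7.61% of all genes, with a median size of 0.39 in smoke and 0.16 in air. Over all genes 65.8% had the same sign in both strata. Across the 14217 genes, which are not independent and share an array platform, the 2 differences had r = 0.41 as a description.

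No gene passed for the difference between the strata (0 of 14217, 0% called; limma, 666 at an unadjusted p under 0.05), and none did with array quality weights, on 24 arrays or with any rat left out. The smallest p was that of Cxcl1, at 1.74 in air and 0.05 in smoke (difference -1.69, adjusted p = 0.248; 0.0565, without rat 603, to 0.85 over the fits with a rat left out, and 1.00 on 24 arrays). Bhlhe40 followed with a difference of -1.14 (adjusted p = 0.627), then the DNA-binding Kin, the translation factor Eif2a and Klf15. Eif2a lay at 8.50 to 8.90 in air with silica against 8.57 to 8.68 without, and at 9.04 to 9.31 in smoke with silica against 8.52 to 8.70 without. Of the 20 largest rises 16 were larger in air, and of the 20 largest falls 3 were, without a called difference in any. Over all called genes, 77 of the 152 rises and 53 of the 175 falls were larger in air.

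**Figure D5:**
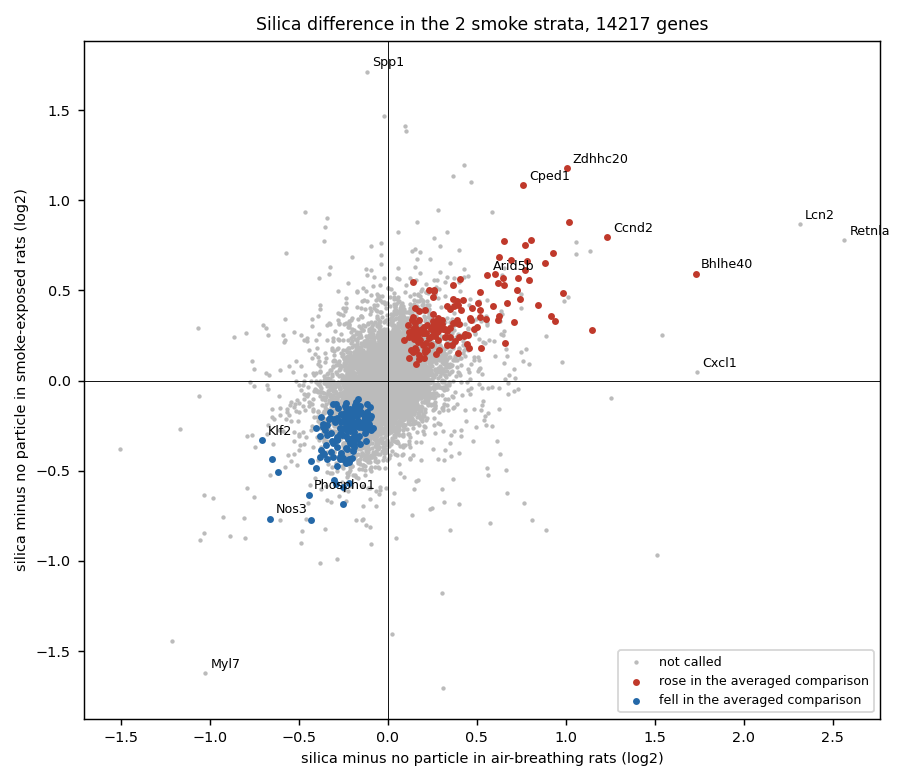
Silica difference in rats that breathed air (horizontal) against rats that breathed smoke (vertical), both log2, for 14217 genes; grey points were not called, red rose and blue fell in the averaged comparison. Called genes lie in the upper right and lower left quadrants, Cxcl1 lies at 1.74 and 0.05, and Spp1 at -0.12 and 1.71.

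The sand rats ask whether the second particle gave other levels than silica, with the 8 silica rats shared between both comparisons. Between silica and Iraqi sand no gene was called (limma, 0 of 14217, 0% called, with 1286 at an unadjusted p under 0.05). The genes called were 2 without rat 302 (Xpo4 higher and Sema4d lower with silica), 1 without rat 502 (Sdcbp2, higher) and 7 with array quality weights. The smallest p was that of Xpo4, a nuclear export receptor, at 7.86, 8.04, 7.92 and 7.81 in air with silica and 7.45, 7.58, 7.32 and 7.22 with sand, then 7.98, 7.85, 7.81 and 7.79 in smoke with silica and 7.53, 7.64, 7.58 and 7.47 with sand. Silica rats were higher in both strata without overlap (0.41 ± 0.06, adjusted p = 0.114), although against no particle the difference was 0.19 ± 0.06 (adjusted p = 0.101, or 0.0402 without rat 103).

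Beside sand, the silica genes given here as examples fell into different patterns. Bhlhe40 with sand was 8.03, 8.23, 8.48 and 7.45 in air, between the 7.21 to 7.39 without particle and the 8.70 to 9.31 with silica. In smoke it was 8.85, 8.11, 8.73 and 8.68 with sand, against 8.14 to 8.33 without particle and 8.26 to 9.08 with silica. Ccnd2 with sand was 9.05, 9.15, 8.88 and 8.34 in air, below the rats without particle, and 9.67, 10.70, 10.10 and 10.09 in smoke; silica minus sand was 1.16 beside 1.01 for silica minus no particle. Arid5b with sand was 7.35, 7.28, 7.59 and 7.26 in air and 7.81, 7.60, 7.58 and 7.84 in smoke (silica minus sand 0.36). Phospho1 with sand was 7.52, 7.52, 7.28 and 6.75 in air and 7.15, 7.10, 6.91 and 7.19 in smoke, so the smoke rats with sand lay near those with silica (silica minus sand -0.18). Klf2 with sand was 11.88, 12.36, 11.42 and 11.37 in air and 11.48, 11.41, 11.65 and 11.50 in smoke, level with silica (0.03). Over the 152 rises the median of silica minus sand was 0.26, and over the 175 falls -0.18, beside -0.03 over all genes; these medians share the silica rats that chose the genes and are given as values only.

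Other probe sets of the called genes, which read the same RNA of the same rats, mostly pointed the same way. Over all 14217 genes 46.35% were higher with silica, and 2897 had an unadjusted p under 0.05 (limma) in either direction. For 57 rises with more than 1 probe set, 71 of 85 other probe sets were higher with silica, 30 at an unadjusted p under 0.05, and 2 were lower at that level; for 67 falls the counts were 81 of 110, 39 and 5. The clearest conflict was Rab14, a GTPase of endosome traffic: its brightest probe set fell (-0.25 ± 0.05, adjusted p = 0.0121), 3 others were higher with silica (0.61 ± 0.06, 0.34 ± 0.08 and 0.42 ± 0.11) and the dimmest gave -0.24 ± 0.21. The mean of its probe sets was 0.18 higher with silica (adjusted p = 0.0603).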

How the data were processed

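RNA of 24 rat lungs was measured on Affymetrix Rat230_2 arrays. The values are log2 expression per probe set, summarised by the authors with RMA per the submitters' processing notes (the sources used here give no version), and were used as deposited. Of 31099 probe sets, 57 controls were left out; 20826 had 1 gene symbol, 436 several and 9780 none in the platform annotation. For 4525 genes with several probe sets the one with the highest mean over 24 arrays stood for the gene, giving 14217 genes. limma 3.58.1 in R 4.3.3 fitted silica with smoke as a block on 16 arrays (13 residual degrees of freedom); 4 group means on the same arrays gave the strata and their difference. Adjusted p is Benjamini-Hochberg over all genes, called under 0.05. Values are log2 ± SE. Depth does not apply to arrays: their number limits the precision. The code of the fit was checked on simulated data with independent noise for each gene and no rat set apart. Of 100 genes each changed by 0.5 or 1 (log2), 88 and 97 were called, as were 13 unchanged genes. The calls on the real rats were not tested by this.

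The 33 gene lists (595 of 673 entries measured) and the members were chosen with earlier results of these data known. Named genes are the 20 largest rises and falls called with 1 sign in both strata (every rat for the first 8), the 10 largest without overlap, up to 4 called members a list, 18 genes named in every case, and the leading genes of the other comparisons. Genes outside this, such as Cd36, Arg1, Eng, Cldn5, Vwf, Pecam1, Bmpr2, Bmal1, Per1 and Sema4d, were chosen after their values were seen. Rat numbers are those of the animals, with no pairing between groups. Promoter windows were matched by Entrez number to RefSeq (GRCr8), the first listed window a gene. Alternatives were other models, scalings, probe set rules, RNA quality covariates and leaving out rats.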

Additional observations from a re-analysis of the deposited data

Results flagged for a closer look

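Of 64 sets of 4 rats (16 genes in 4 groups), 6 held a rat far from the other 3; chance flags about 1 in 20. Most of these sets had 3 rats within a few hundredths of each other. Bhlhe40 was 7.39 in rat 105 (air without particle) against 7.22 ± 0.015 (SD, n = 3). Ccnd2 was 10.65 in rat 502 (air with silica) against 11.00 ± 0.00276 (SD, n = 3), and Phospho1 was 7.12 in the same rat against 6.89 ± 0.0182 (SD, n = 3), both nearer to the rats without particle. In smoke without particle, Ccar1 was 7.99 in rat 205 against 8.28 ± 0.0233, Foxf1 10.74 in rat 204 against 10.41 ± 0.0291, and Klf2 11.89 in rat 201 against 11.65 ± 0.0168 (SD, n = 3 each). Leaving out rat 502 raised the count of called genes from 327 to 532, of which 316 were among the 327.

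Probe sets with several or no gene symbol were outside the comparison. Of 10216 such probe sets, 299 were called for silica (204 higher and 95 lower), and 1879 had an unadjusted p under 0.05.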

How the results depend on the processing

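The 327 called genes became 312, 349, 421, 344, 483, 267 and 257 with 4 group means, trend and robust shrinkage, the brighter genes alone, averaged probe sets, array quality weights, a new quantile normalization and the absorbance at 260 nm as a covariate, and 241 with centring on array medians, which moved the median of all genes from -0.0098 to 0.0075. Of the 257 with the absorbance covariate, 155 were among the 327. The count of called genes fell to 49 on 24 arrays, 139 without the smoke term, 153 without rats 104 and 604, and 28 with a minimum of 1.5-fold. On the 12 rats with an RNA integrity number it was 18, fewer arrays being one reason, and 2 (Arid5b and Cped1) with that number as a covariate; the cause of the further loss was not tested. Leaving out 1 rat gave 119 to 532. Silica in air (40) gave 20 on 24 arrays, 78 with array weights, 22 without rats 104 and 604, and 9 to 39 with a rat left out. Silica in smoke (34) gave 2, 270, 19 and 4 to 35 in the same order. Silica against sand (0) gave 7 with array weights, 2 without rat 302, 2 without rats 302 and 604, and 0 to 2 with a rat left out. The difference between strata stayed at 0 in all fits run. With 50 and 500 genes in place of 100, 82% and 83.2% of those chosen in air kept their sign in smoke, and 90% and 86.6% of those chosen in smoke in air. With windows of 250 bases the E-box was in 10 and not 12 of the 125 rises, TGACG in 30 and not 33, TGACGTCA in 2 and not 3, and the other counts were equal. Of 58 called genes named under the rule, Rab14 reversed with the mean of probe sets (0.18); no other changed sign. No paired analysis was possible because rat numbers are not shared between groups.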
